A study of Mus musculus with 6 samples.

Results

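The microRNA host lncRNAs are long non-coding RNAs whose loci contain microRNA genes, named by convention after a microRNA they carry. They were chosen by name, as the lncRNAs whose identifier starts with Mir and ends with hg, and 11 of the 9413 lncRNAs listed (18382 genes in all) were found. They are Mir22hg, Mir133a-1hg, Mir99ahg, Mir100hg, Mir142hg, Mir17hg, Mir155hg, Mir670hg, Mir181a-1hg, Mir205hg and Mir9-3hg. RNA came from 6 hearts of male mice, each isolated and perfused on a Langendorff system, which feeds the heart through its coronary vessels. In 3 Sham hearts the beat was not interrupted. In 3 I/R (ischaemia and reperfusion) hearts the beat was arrested with a cardioplegic solution for 30 min, and the hearts were then reperfused for 1 h. The labels call the hearts of a group biological replicates and give neither strain nor age. Whole-heart RNA of all cell types together was measured.

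A microRNA is cut from a long primary transcript in 2 steps. The nuclear Microprocessor (Drosha with Dgcr8) frees a hairpin from the primary transcript, and the cytoplasmic enzyme Dicer trims it to the short mature strand that an Argonaute protein carries to target mRNAs. Bases 2 to 8 of the mature strand, the seed, pair with the target. The level of a host transcript left after processing is not the level of its microRNA. Poly(A) RNA was sequenced here, so the values below are of host transcripts, and mature microRNAs were not analysed here. In the heart the best known of these loci is Mir133a-1hg, whose microRNAs of the miR-1 and miR-133 families are characteristic of cardiac and skeletal muscle.

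Mature microRNA sequences (RefSeq, GRCm38.p6) were found for 10 of the 11 hosts, 9 by position within the host's span and 1, Mir181a-1hg, by name. The following are shown because they group the hosts by the targets their microRNAs can pair with. All read 5′ to 3′, and capitals mark the seed.
mmu-miR-22-3p, in Mir22hg at chr11:75463772-75463793 (+ strand): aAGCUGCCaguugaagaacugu
mmu-miR-99a-5p, in Mir99ahg at chr16:77598940-77598961 (+): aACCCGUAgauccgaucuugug
mmu-miR-100-5p, in Mir100hg at chr9:41531437-41531458 (+): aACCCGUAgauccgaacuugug
mmu-miR-125b-5p, in Mir99ahg at chr16:77646279-77646300 (+) and in Mir100hg at chr9:41581940-41581961 (+): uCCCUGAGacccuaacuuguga
mmu-miR-17-5p, in Mir17hg at chr14:115043684-115043706 (+): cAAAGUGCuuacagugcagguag
mmu-miR-20a-5p, in Mir17hg at chr14:115044183-115044205 (+): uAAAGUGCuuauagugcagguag
mmu-miR-19a-3p, in Mir17hg at chr14:115044048-115044070 (+): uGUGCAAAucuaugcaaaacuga
mmu-miR-19b-3p, in Mir17hg at chr14:115044358-115044380 (+): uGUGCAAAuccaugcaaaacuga
mmu-miR-92a-3p, in Mir17hg at chr14:115044476-115044496 (+): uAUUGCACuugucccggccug
mmu-miR-142a-3p, in Mir142hg at chr11:87756903-87756925 (+): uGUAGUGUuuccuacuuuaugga
mmu-miR-155-5p, in Mir155hg at chr16:84714143-84714165 (+): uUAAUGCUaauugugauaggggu
mmu-miR-670-5p, in Mir670hg at chr2:94261358-94261379 (− strand): aUCCCUGAguguauguggugaa
mmu-miR-129-5p, in Mir670hg at chr2:94241419-94241439 (−): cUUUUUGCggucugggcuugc

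Mir99ahg and Mir100hg, on chromosomes 16 and 9, carry microRNAs with the same seeds. Their miR-99a-5p and miR-100-5p have the seed ACCCGUA and differ at 1 of 22 bases, position 16 from the 5′ end, and both loci encode an identical miR-125b-5p. Mir17hg holds 6 hairpins, and within it miR-17-5p and miR-20a-5p share the seed AAAGUGC while miR-19a-3p and miR-19b-3p share GUGCAAA. Among the mature strands found, which leave out those of Mir133a-1hg, no other of the 34 distinct seeds belonged to more than 1 microRNA name. For Mirlet7a-2 in Mir100hg only let-7a-2-3p was found, so the seed of its other strand was not compared. Mir670hg also spans the miR-129-2 gene, although its name refers only to miR-670.

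Mir133a-1hg (ENSMUSG00000095438) lies on the − strand of chromosome 18 (GRCm38, 10781723 to 10785883, a span of 4161 bases). RefSeq places Mir1a-2 and Mir133a-1 inside this span, with hairpins 332 and 2908 bases from the host's start, and places the whole span within the protein-coding gene Mib1. Mib1 is not listed in the table used here. Whether reads were counted by strand is unknown here, so reads of Mib1 that fall on this span could not be separated from those of the host.

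On a scale per length (FPKM, fragments scaled to transcript length and library total, where the lncRNA table has library totals of its own, so that values of lncRNAs and of protein-coding genes are not on the same scale), Mir22hg and Mir133a-1hg were the most abundant hosts, at means of 516 and 408 FPKM over the 6 hearts. They ranked 131 and 177 among the 9413 lncRNAs. Mir22hg (ENSMUSG00000085148, chr11:75461539-75466676, +) makes miR-22, a microRNA abundant in heart and skeletal muscle. The ranges of the 2 hosts over the hearts overlapped, from 399.7 to 637 FPKM for Mir22hg and from 299.7 to 552 for Mir133a-1hg, so their order is not separated by the spread between hearts. Mir133a-1hg was above Mir22hg in 2 of the 6 hearts, Sham replicates 1 and 3.

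The remaining hosts followed at lower levels. Mir99ahg (ENSMUSG00000090386, chr16:77236317-77773427, +) had a mean of 115 FPKM, 3.55-fold below Mir133a-1hg with no overlap between the hearts' ranges. Mir100hg, at 96.0 FPKM, overlapped Mir99ahg in range. Mir142hg (ENSMUSG00000084796, chr11:87755577-87757270, +), the host of a microRNA of blood-forming cells, averaged 53.3 FPKM. Mir17hg (ENSMUSG00000089726, chr14:115042879-115046727, +), the primary transcript of the miR-17-92 cluster known for driving proliferation, had one of 37.8 FPKM. These 2 could not be ordered, since Mir142hg was higher in 3 of 6 hearts.

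Mir155hg (ENSMUSG00000097418, chr16:84703167-84715245, +), whose microRNA is induced in activated immune cells, averaged 15.96 FPKM and lay below Mir17hg in 6 of 6 hearts. Mir670hg (ENSMUSG00000075020, chr2:94160636-94264918, −) and Mir181a-1hg were at 4.13 and 2.04 FPKM. Mir100hg, Mir181a-1hg and Mir205hg have no coordinates in the table. Mir205hg and Mir9-3hg, whose microRNAs are known from epithelia and from brain, had 7 reads and 1 read over the 6 hearts and were below the filter of a mean of 0.5 FPKM. The 9 hosts that passed this filter had reads in every heart.

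**Figure D1:**
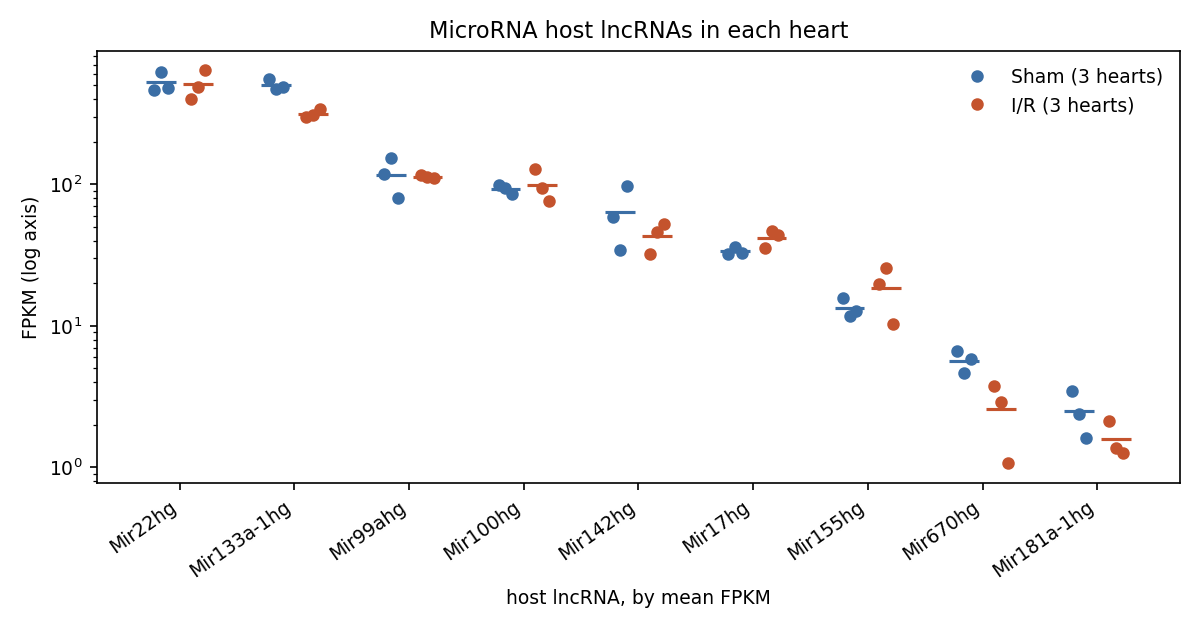
FPKM (log axis) of the 9 host lncRNAs above the filter in each heart, ordered by mean; points are hearts, horizontal lines are group means, blue is Sham and orange is I/R. Mir22hg and Mir133a-1hg sit highest in both groups, and the Sham and I/R points of Mir133a-1hg and Mir670hg do not overlap.

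The order changed when reads were counted without dividing by length. The read numbers behind the FPKM were recovered together with the transcript length that the authors' values imply. For Mir133a-1hg that length was 395 bases, against 1752 for Mir22hg, 3422 for Mir99ahg and 4244 for Mir100hg. By reads over the 6 hearts, Mir22hg had 13352, Mir100hg 5980, Mir99ahg 5873, Mir133a-1hg 2390 and Mir17hg 1970. Mir133a-1hg thus ranked 2 per length and 4 by reads, and the short Mir142hg (269 bases, 206 reads) ranked 5 and 7. By reads Mir133a-1hg ranked 4 in each Sham heart and 5, behind Mir17hg, in each I/R heart. Together the 11 hosts held 0.184% to 0.237% of the lncRNA reads of a Sham heart and 0.193% to 0.214% of those of an I/R heart.

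**Figure D2:**
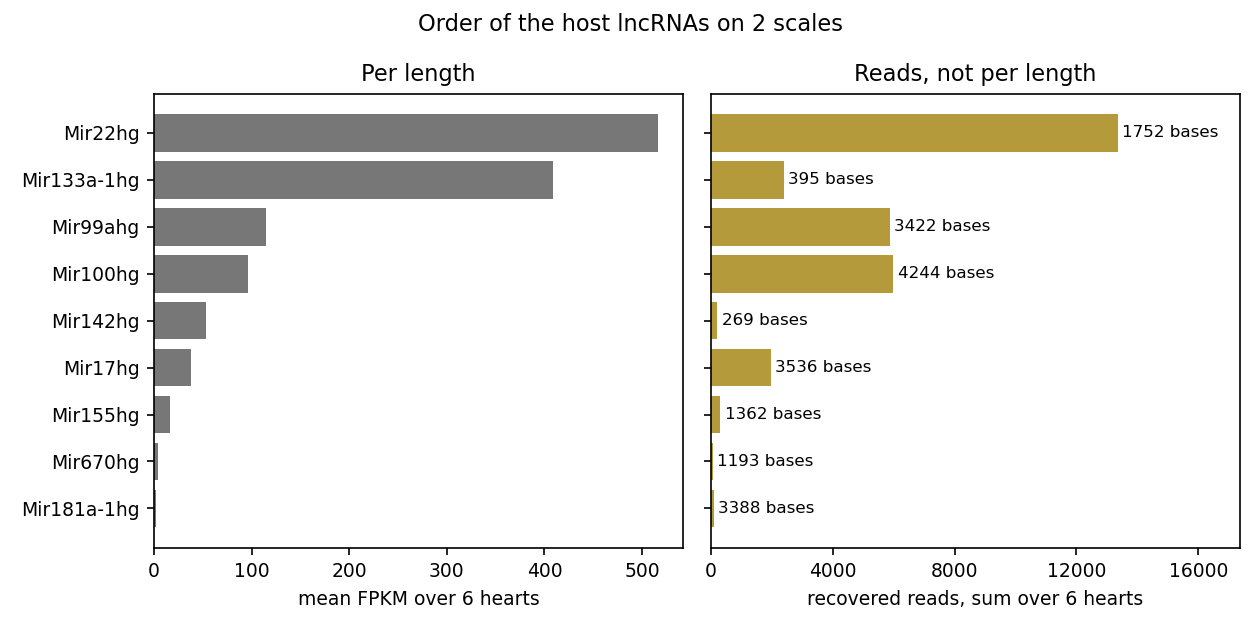
Mean FPKM over 6 hearts (left) and recovered reads summed over 6 hearts (right) for the 9 hosts above the filter; labels give the transcript length implied by the FPKM. Mir133a-1hg, at 395 bases, ranks 2 on the left and 4 on the right.

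The comparison of I/R with Sham asks whether host transcripts differ 1 h after the arrest. Mir133a-1hg was lower in I/R hearts, with a difference of −37.2% in mean FPKM. Mir670hg, with few reads, differed by −54.4%. The other 7 hosts tested had overlapping groups. No host passed an adjusted p of 0.05 in limma over all 12114 genes tested, where 0.0% of genes passed. At an unadjusted p under 0.05 limma had 2 of the 9 hosts lower in I/R and 0 higher, and limma voom on the recovered reads had the same number. Among all genes tested 4.21% were lower and 4.23% higher at that level (8.44% in either direction), and among lncRNAs 6.02% and 4.81%. Differences below are the I/R mean less the Sham mean of log2(FPKM + 1), given ± SE, and group values are means ± SD with n = 3 hearts. The scale understates changes of genes near or below 1 FPKM.

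Mir133a-1hg was at 552, 470.0 and 484 FPKM in Sham replicates 1, 2 and 3 and at 299.7, 306 and 339 FPKM in I/R replicates 1, 2 and 3. Each I/R heart lay below each Sham heart, with a gap between 339 and 470.0 FPKM that was wider than the range within I/R. The groups did not overlap in this direction for 6.57% of all genes tested, 7.61% of lncRNAs and 6.88% of lncRNAs with a mean of at least 100 FPKM, and in the higher direction, which no host showed, for 7.1% and 5.87% of genes and lncRNAs. The means were 502 ± 44.0 FPKM in Sham and 315 ± 21.2 in I/R, a change of −0.67 ± 0.10 (limma, unadjusted p = 0.000257, adjusted p = 0.385 over all genes). By unadjusted p it ranked 6 of 12114 genes, and it was singled out with this result known. The reads were 609, 503 and 387 in the Sham hearts and 262, 314 and 315 in the I/R hearts, enough that counting error alone gives a spread of 4.47% in Sham and 5.8% in I/R, beside observed spreads of 8.76% and 6.74%.

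The change of Mir133a-1hg was similar under the other settings, although several of them, such as the filter and the variance trend, cannot move it. It lay between −0.70 and −0.60 in the 13 alternatives that kept all hearts, and between −0.72 and −0.60 in the 6 that left 1 out. The unadjusted limma p was under 0.05 in these 13 and 6, and the adjusted p lay between 0.239 and 0.602. In bulk tissue, fewer cells of a type and less RNA per cell cannot be told apart. Of 12 ventricular cardiomyocyte markers, 9 were tested and 7 of these were lower in I/R (median −0.33, 2 at an unadjusted p under 0.05, 0 at an adjusted one). Their summed level was 9654 to 10265 FPKM in Sham hearts and 9634 to 10464 in I/R hearts, and no listed marker was at 0. Most of this sum was the most abundant marker, Fabp3, with means of 9421 ± 393 FPKM (Sham) and 9535 ± 444 (I/R). The sum therefore follows Fabp3, which differed by 0.02 ± 0.07, and does not show the level of the others. Of those others that were tested, only Ryr2 was higher in I/R (0.16 ± 0.18). The 7 lower ones ranged from −0.05 ± 0.11 for Ttn to −0.77 ± 0.17 for Pln, the gene of phospholamban. Their depth differed widely, from 57056 Sham reads and 49889 I/R reads for Ttn to 26 and 10 for Tnni3. The part of these markers in the change of Mir133a-1hg was not tested.

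Relative to Mir22hg in the same heart, Mir133a-1hg stood at ratios of 1.18, 0.753 and 1.00 in Sham replicates 1, 2 and 3 and of 0.750, 0.626 and 0.532 in I/R replicates 1, 2 and 3. The lowest Sham ratio and the highest I/R ratio were thus almost equal. Of the summed FPKM of the 11 hosts, Mir133a-1hg made up 40.8%, 32.8% and 37.8% in Sham hearts and 28.9%, 27.2% and 26.7% in I/R hearts. These shares were lower in each I/R heart than in each Sham heart. They use the same FPKM of Mir133a-1hg, which is also part of the sum, so they are no further evidence of its difference.

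**Figure D3:**
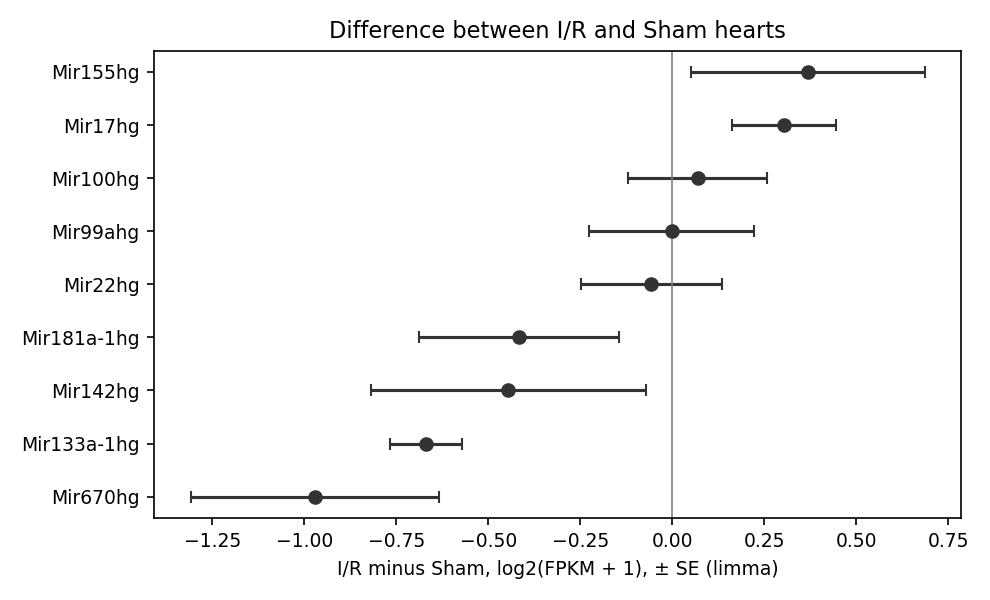
Difference between I/R and Sham hearts in log2(FPKM + 1) for the 9 hosts above the filter, with bars of ± SE from limma (3 hearts per group). Mir670hg (−0.97) and Mir133a-1hg (−0.67) lie farthest below 0, and the bar of Mir133a-1hg is the narrower of the 2.

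Mir670hg was at 6.6, 4.64 and 5.79 FPKM in Sham replicates 1, 2 and 3 and at 3.79, 2.9 and 1.07 FPKM in I/R replicates 1, 2 and 3. The groups did not overlap, but the values rest on 22, 15 and 14 reads in Sham and 10, 9 and 3 in I/R. Its change was −0.97 ± 0.34 (limma, unadjusted p = 0.0242, adjusted p = 0.513 over all genes). Leaving out 1 heart gave −1.22 to −0.62, the smallest difference without I/R replicate 3, and the unadjusted p was above 0.05 without Sham replicate 1 and without Sham replicate 3. Counting error alone gives a spread of 24.3% in Sham and 36.9% in I/R at this depth.

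Mir22hg did not separate the groups. It was at 466, 624 and 482 FPKM in Sham replicates 1, 2 and 3 and at 399.7, 489 and 637 FPKM in I/R replicates 1, 2 and 3, so that each group held a high heart. The change was −0.06 ± 0.19 (limma, adjusted p = 0.963), and its sign turned with median centring by class (0.01) and without I/R replicate 1 (0.10) or Sham replicate 2 (0.07). Counting error alone gives a spread of 2.08% in Sham and 2.17% in I/R, beside observed spreads of 16.6% and 23.6%.

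The 2 hosts that share seeds, Mir99ahg and Mir100hg, also differed by less than the spread between hearts. Mir99ahg was at 118, 154 and 79.6 FPKM in Sham and 117, 112 and 111 FPKM in I/R (−0.00075 ± 0.22, limma adjusted p = 0.999). The I/R hearts lay close together and the Sham hearts lay on both sides of them. Mir100hg was at 98.7, 94.0 and 85.3 FPKM in Sham and 128, 94.1 and 76.3 in I/R (0.07 ± 0.19, limma adjusted p = 0.948), and here the Sham hearts lay between the extremes of I/R. Leaving out 1 heart gave −0.25 to 0.22 for Mir99ahg and −0.13 to 0.24 for Mir100hg.

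Mir17hg was at 32.0, 36.3 and 32.7 FPKM in Sham and 35.3, 47.1 and 43.7 FPKM in I/R. The groups overlapped only because I/R replicate 1 was below Sham replicate 2. The change was 0.30 ± 0.14 (limma, unadjusted p = 0.0706, adjusted p = 0.613), on 898 Sham reads and 1072 I/R reads. Of the 13 alternatives with all hearts, 1 had an unadjusted limma p under 0.05, that with array weights (0.33, unadjusted p = 0.0453, adjusted p = 0.541). Leaving out 1 heart gave 0.22 to 0.42, with unadjusted limma p from 0.0157 to 0.204. Of these 6 fits 1 was under 0.05, that without I/R replicate 1 (0.42, adjusted p = 0.382). This is the heart through which the groups overlapped.

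The 2 hosts tied to immune and blood-forming cells gave differences within their spread. Mir155hg was at 15.8, 11.7 and 12.7 FPKM in Sham and 19.9, 25.4 and 10.3 FPKM in I/R (0.37 ± 0.32, limma adjusted p = 0.811). I/R replicates 1 and 2 were above all Sham hearts and I/R replicate 3 below them. Without I/R replicate 3 the change of Mir155hg was 0.72 (limma, unadjusted p = 0.013, adjusted p = 0.475). Without I/R replicate 2 it was 0.11 (limma, unadjusted p = 0.735). Of the 6 fits that left out 1 heart, 1 was under an unadjusted p of 0.05. Mir142hg was at 58.6, 34.3 and 97.3 FPKM in Sham and 31.9, 45.8 and 52.2 FPKM in I/R (−0.45 ± 0.37, adjusted p = 0.805), from 19 to 53 reads a heart. Without Sham replicate 2 its change was −0.82 (unadjusted p = 0.0336, adjusted p = 0.57), and without Sham replicate 3 it was −0.08.

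Of 8 macrophage markers 4 were tested and all 4 were higher in I/R (median 0.22, 1 at an unadjusted p under 0.05, 0 at an adjusted one), with summed levels of 885 to 1064 FPKM in Sham and 1096 to 1191 in I/R. The 1 neutrophil marker listed, S100a8, had 1 read in all, and the 3 lymphocyte markers listed summed to at most 1.35 FPKM in any heart. The part of these cells in Mir155hg and Mir142hg was not tested.

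Mir181a-1hg was at 3.49, 2.4 and 1.6 FPKM in Sham and 2.13, 1.36 and 1.26 FPKM in I/R, from 10 to 33 reads a heart. The groups overlapped through 1 I/R heart (−0.42 ± 0.27, limma adjusted p = 0.738). Mir205hg had 3 Sham reads and 4 I/R reads, and Mir9-3hg had 0 and 1, so a difference was not detectable at this depth.

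Few protein-coding genes were listed near the hosts. Of Mir22hg the nearest one, Wdr81, at 6822 bases, had 8 Sham reads and 14 I/R reads and was below the filter. The nearest to Mir133a-1hg was Snrpd1, a splicing factor gene, at 153493 bases. Its means were 30.7 ± 1.45 FPKM (Sham) and 30.6 ± 2.72 (I/R) (−0.01 ± 0.12), and no gene listed with coordinates overlapped Mir133a-1hg. Jam2, 58878 bases from Mir155hg, differed by −0.45 ± 0.23, and Mtmr4, 139275 bases from Mir142hg, by 0.43 ± 0.22, each opposite in sign to its host and neither at an unadjusted p under 0.05. Ext2, 338068 bases from Mir670hg, differed by −0.42 ± 0.31, and Tpm3-rs7, 1726125 bases from Mir17hg, by 0.05 ± 0.19. Each had the sign of its host, and neither was at an unadjusted p under 0.05. The span of Mir99ahg held 14 other listed lncRNAs, 12 of them on its own strand. Of the 13 that were tested, 10 were lower and 3 higher in I/R, beside 3823 lower and 3250 higher of all 7073 lncRNAs tested. Of these 13, 0 were at an adjusted p under 0.05 in limma and 1 at an unadjusted one. That one was Gm37466, at 14.8, 13.6 and 10.6 FPKM in the Sham hearts against 9.01, 6.49 and 5.22 FPKM in the I/R hearts (−0.84 ± 0.23, unadjusted p = 0.00829, adjusted p = 0.434, 65 and 32 reads). Its groups did not overlap, nor did those of 9430053O09Rik on the opposite strand (−0.48 ± 0.22), while C130023A14Rik had means of 36.7 FPKM (Sham) and 35.8 (I/R). Thus 2 of the 13 had no overlap and were lower in I/R, beside 7.61% of all lncRNAs tested. The span of Mir100hg in RefSeq (chr9:41376526-41615185) held 3, among them Gm28119, which contains the miR-125b-1 hairpin (38.4 ± 7.3 and 48.7 ± 26.9 FPKM).

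The 5 genes whose values over the 6 hearts were most like those of Mir133a-1hg were all lncRNAs. Of all 12114 genes tested, 7073 were lncRNAs, and lncRNAs have library totals of their own. Likeness was the root mean square difference in log2(FPKM + 1) after each gene was centred on its own mean, taken over the other 6623 genes averaging 5 FPKM or more (median 0.409). Gm44321 was nearest (0.071), followed by Mypopos (0.0782), Gm43360 (0.104), Gm14532 (0.107) and Gm45805 (0.112). Gm43360 was the most abundant of them, at 1097, 921 and 896 FPKM in Sham and 695, 656 and 715 FPKM in I/R. Picking genes this way fixes that they are lower in I/R, so their direction is no further evidence.

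**Figure D4:**
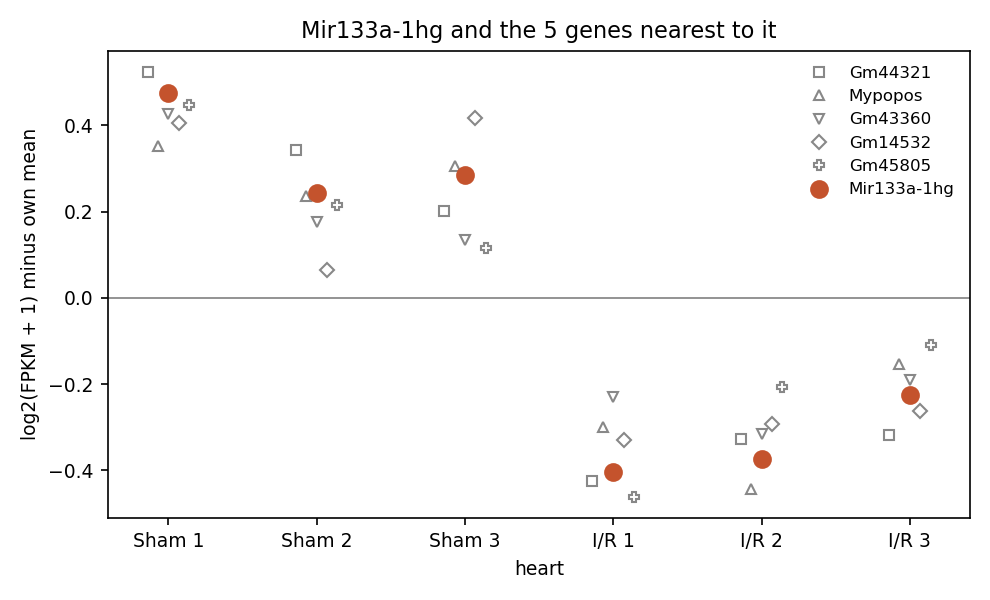
log2(FPKM + 1) minus each gene's own mean in the 6 hearts, for Mir133a-1hg (orange circles) and the 5 genes nearest to it (grey symbols). All 6 genes are above 0 in the 3 Sham hearts and below 0 in the 3 I/R hearts.

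Hosts of microRNAs that carry other names were described for comparison. Of 16 names of lncRNAs written down as hosts of microRNAs or other small RNAs, 12 were listed and tested, and 1 more is an older name of Mir100hg. None passed an adjusted p of 0.05 in limma, and 1 was lower and 2 higher in I/R at an unadjusted p under 0.05 (median 0.13). At that level 6.02% of all lncRNAs tested were lower and 4.81% higher. Carmn, the host of miR-143 and miR-145 known from smooth muscle, was at 235, 214 and 313 FPKM in Sham and 107, 123 and 168 FPKM in I/R. Each I/R heart lay below each Sham heart (−0.94 ± 0.21, unadjusted p = 0.00278, adjusted p = 0.386). Of 7 smooth muscle and pericyte markers 4 were tested, 2 lower and 2 higher in I/R (median −0.12), with sums of 810.1 to 1064 FPKM in Sham and 795 to 1131 in I/R; their part in the change of Carmn was not tested.

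Rian and Dnm3os, hosts of an imprinted microRNA cluster and of miR-199a and miR-214, were each higher in all 3 I/R hearts, by 0.41 ± 0.15 and 0.42 ± 0.15 (limma, adjusted p = 0.537 and 0.539). Of 7 fibroblast markers 5 were tested and 4 of these were higher in I/R (median 0.47, 2 at an unadjusted p under 0.05, 0 at an adjusted one), with sums of 209 to 285 FPKM in Sham hearts against 293 to 333; their part in the change of Dnm3os was not tested. Mirg, a further host of that imprinted cluster, differed by 0.44 ± 0.24 and Rmst by 0.36 ± 0.20. The abundant Dleu2, host of miR-15a and miR-16, differed by −0.21 ± 0.14, Snhg14 by −0.20 ± 0.09 and Gas5 by 0.04 ± 0.13, none of them at an unadjusted p under 0.05.

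By position rather than by name, 61 of the 8519 lncRNAs with coordinates outside chromosome 18, which was not searched, spanned at least 1 RefSeq microRNA hairpin on their own strand, and 7 of these were among the 11 hosts. The hairpins searched were incomplete, since that of Mir125b-2 in Mir99ahg was not among those found, so 61 is a minimum. Of the 54 that were not among the 11 hosts, 43 were tested. In limma 0 of them passed an adjusted p of 0.05, and 4 were lower and 5 higher in I/R at an unadjusted one, with a median of −0.05 beside −0.03 over all lncRNAs tested. Of all lncRNAs tested 0.0% passed an adjusted p of 0.05, and 6.02% were lower and 4.81% higher at an unadjusted one (10.8% in either direction). Named here after their values were seen, 6720427I07Rik, which spans Mirlet7d, had means of 93.1 ± 4.76 FPKM (Sham) and 61.3 ± 1.43 (I/R) (−0.59 ± 0.09, adjusted p = 0.385), and 1700016P03Rik, which spans Mir212 and Mir132, at 140.0 ± 9.72 and 183 ± 33.8 (0.37 ± 0.15, adjusted p = 0.579). Gm4258 (chr1:137898595-138000384) spans Mir181a-1 and Mir181b-1 with means of 10.98 ± 3.88 FPKM (Sham) and 9.01 ± 1.25 (I/R), above those of Mir181a-1hg.

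Protein-coding genes that hold a microRNA did not pass the test either. Of 41 names 24 were listed and 14 tested, with 0 at an unadjusted p under 0.05 in limma or an adjusted one (median −0.03). Myh6, the cardiac myosin gene with miR-208a in an intron, had means of 27.5 ± 4.37 FPKM (Sham) and 21.6 ± 1.91 (I/R) (−0.33 ± 0.16). By the listed rows Gpc1 was the most abundant, at 380.4 ± 22.8 and 422 ± 34.6 FPKM (0.15 ± 0.09), followed by Pank3 (0.08 ± 0.11), Myh6 and Hnrnpk (−0.02 ± 0.16). Myh6 had only 279 Sham reads and 200 I/R reads in these rows. The protein-coding rows hold 36.8% to 39.9% of their library totals. This order is therefore of the rows listed and may not be the order of these genes in heart. Rnf130 differed by −0.35 ± 0.18 on 38 Sham reads and 19 I/R reads, Wwp2 by 0.15 ± 0.16 and Lpp by −0.27 ± 0.31.

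Genes of microRNA processing and function were thinly covered. Of 38 names 10 were listed and 7 tested, with 0 at an unadjusted p under 0.05 in limma or an adjusted one (median 0.07). Drosha, Dgcr8, Xpo5 and Dicer1 were not analysed here. Ago2, the slicing Argonaute, was at 52.0, 53.6 and 52.7 FPKM in Sham and 57.0, 57.2 and 52.9 FPKM in I/R (0.07 ± 0.10). Ago4 was higher in each I/R heart than in each Sham heart (8.95 ± 0.295 and 11.2 ± 2.22 FPKM, 0.28 ± 0.18). The splicing and decay factor gene Khsrp, which also promotes processing of some microRNAs, differed by 0.03 ± 0.09, the Dicer partner gene Prkra by −0.05 ± 0.18, Cnot7 of the deadenylase complex by 0.24 ± 0.21, and the uridylyltransferase genes Zcchc6 and Zcchc11 by 0.19 ± 0.21 and −0.17 ± 0.23.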

How the data were processed

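The authors deposited FPKM per transcript for 6 libraries of poly(A) RNA (1 per heart), per the file headers and labels. Tools named in the submitters' processing notes are fastp 0.23.0, HISAT2 2.1.0 and HTSeq 0.10.0, without roles, and builds GRCm39, GRCm38 and mm10. For the annotation and strand setting, not given in the sources used here, nothing is assumed. Of 21198 rows, 40 repeats were dropped. Coordinates are the table's: of 8676 genes compared, 97.1% overlapped their GRCm38 RefSeq span by at least a fraction of 0.5, so GRCm38 is used.

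FPKM of a protein-coding gene's transcripts were summed. The 12114 genes averaging 0.5 FPKM or more were fitted as log2(FPKM + 1) with limma 3.58.1 in R 4.3.3 (group only, variance trend, two-sided, Benjamini-Hochberg over all genes, threshold 0.05). FPKM of lncRNAs are whole reads divided by length and a library total, which recovered the totals (2025331 to 2792592 reads) and reads (within 0.001, lengths from 30 bases) for 9413 of 9413 lncRNA rows. The protein-coding rows hold 36.8% to 39.9% of that class's own library totals. Both steps were tested on simulated data.

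Every host is named. Per list the 6 genes with the smallest p and the 4 most abundant, neighbouring genes and the 5 most like Mir133a-1hg were named by rule. The hosts, lists and tests were chosen with earlier results of these data known.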

Additional observations from a re-analysis of the deposited data

How the results depend on the processing

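No alternative made limma call any host or any gene at an adjusted p of 0.05, and 0 genes were called with all hearts. Mir133a-1hg kept its direction in all 13 alternatives with all hearts, and lay from −0.72 to −0.60 with 1 heart left out. Settings for the filter, the variance trend, the replicate block or the genes tested cannot move its difference, which was −0.67 in each. Groups that do not overlap also cannot change direction when 1 heart is left out. Hosts at an unadjusted p under 0.05 numbered 2. With all hearts kept they numbered 1 with a filter at 5 FPKM, which leaves 7 hosts and drops Mir670hg, and 3 with array weights, which add Mir17hg, higher in I/R. With 1 heart left out they numbered 1 to 3, 1 without Sham replicate 1 and without Sham replicate 3. Mir133a-1hg ranked 2 of the hosts by mean FPKM, in Sham alone too, and 4 by recovered reads. Values near 0 changed sign: Mir22hg to 0.0111 and Mir99ahg to 0.0676 with median centring by class, and with 1 heart left out Mir22hg ranged from −0.23 to 0.10, Mir99ahg from −0.25 to 0.22 and Mir100hg from −0.13 to 0.24. The cause was not tested. With the replicate number as a block (replicate block), Mir133a-1hg changed by −0.67 (limma, adjusted p = 0.335). As without the block, 0 genes were at an adjusted p under 0.05 and 2 hosts at an unadjusted one. The numbers are not known to pair hearts: same-numbered hearts correlated by 0.153, 0.0283 and 0.0287 in their deviations from the group means, and I/R replicate 3 correlated best with Sham replicate 2 (0.111). Depth limits Mir670hg, Mir181a-1hg, Mir205hg and Mir9-3hg, with 1 to 104 reads over 6 hearts.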
